A study of Mus musculus with 10 samples.

Results

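The 10 genes described here encode the cap-binding complex eIF4F, its close relatives and the repressors that block it. Each was found as the row of the footprint count table whose Ensembl identifier carries the gene's symbol, which gave 10 of 22373 genes. The repressors were Eif4ebp1 (ENSMUSG00000031490) and Eif4ebp2 (ENSMUSG00000020091), and the cap-binding proteins were Eif4e (ENSMUSG00000028156) and Eif4e2 (ENSMUSG00000026254). The scaffolds were Eif4g1 (ENSMUSG00000045983), Eif4g2 (ENSMUSG00000005610) and Eif4g3 (ENSMUSG00000028760). The helicases and their helper were Eif4a1 (ENSMUSG00000059796), Eif4a2 (ENSMUSG00000022884) and Eif4b (ENSMUSG00000058655). All 10 passed the filter on low counts, which asked for 32 footprints in at least one stage and kept 13484 genes.

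Ribosome profiling (Ribo-seq) was done on neocortex of wild-type CD-1 mice at 5 stages of neurogenesis, the embryonic days E12.5, E14, E15.5 and E17 and the day of birth, P0, with 2 libraries at each stage. No group carried a mutation or received an agent. Lysates of all stages were digested with RNase T1 and RNase A, without cycloheximide. Brains of both sexes were pooled for each library, so a replicate is a pool and the spread between replicates is not that between animals.

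Most mRNAs are translated after eIF4E grips the 5′ cap and eIF4G joins it to the helicase eIF4A, which unwinds the mRNA leader so that the small ribosomal subunit can load. The 4E-BPs compete with eIF4G for the same surface of eIF4E. When the kinase mTORC1 phosphorylates them they let go, so that the ratio of 4E-BP to eIF4E is one of the settings of cap-dependent translation in progenitors and neurons. Eif4ebp2 encodes the 4E-BP known to prevail in the brain.

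The libraries held 7544404 to 36129988 counts. P0 replicate 1 was the shallowest, and P0 stood apart from the other stages, since the log2 ratio of its replicates had an SD of 0.532 across genes, against 0.125 to 0.216 in the embryonic stages (4559 genes that averaged 500 counts or more). The changes at P0 printed here are therefore given also without each P0 library where that ended or made a call, turned a called direction or moved a called change by over 1.5 times. The labelled tissue was checked against marker lists. None of the 8 neuron markers and none of the 8 progenitor markers was at 0 at any stage, and all 8 neuron markers were called higher at P0 than at E12.5. Markers of the other lists were not at 0 either, apart from 1 of choroid plexus at E15.5, so presence alone does not identify the tissue. Markers of other tissues differed with stage. So did those of cells that can be part of neocortex, namely glia, microglia and interneurons from the ganglionic eminence. Levels are given as CPM, the counts of a gene scaled by the library's size and its TMM factor. The summed level of 6 choroid plexus markers was 276 to 1125 CPM in the libraries of E12.5 and E14 and 5.37 to 14.4 CPM afterwards. That of 6 markers of meningeal fibroblasts was 62.9 to 101 CPM before E15.5 and 2.53 to 7.14 CPM from then on. Markers of the ganglionic eminence rose from 13.9 to 14.7 CPM at E12.5 to 161 to 167 CPM at P0, and those of astrocytes and the oligodendrocyte lineage from 8.80 to 9.499 CPM to 89.2 to 119 CPM, summed over 6 genes each. Microglia markers (6 genes) were at 17.05 to 19.1 CPM at E14 and 11.02 to 11.9 CPM at E15.5, and 4 of the 5 tested were called lower at that step. A footprint count depends on how much of an mRNA is present and on how densely ribosomes occupy it, and in whole tissue fewer cells of a type cannot be told apart from fewer footprints per cell.

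Promoter sequences are shown because some of these genes are textbook targets of Myc, a transcription factor that binds the E-box CACGTG. Windows of RefSeq promoters (GRCm38.p6) were found for 8 of the 10 genes, and the entries of Eif4ebp1 and Eif4g2 were not in the table. The letters CACGTG, which read the same on both strands, were searched in the 250 bases before each annotated start. They were present for 3 of the 8 genes, 1 gene each among the cap-binding proteins, scaffolds and helicases, against 6.86% of 27025 genes and 6.02% of 32851 windows in the whole table. Stretches of 60 bases around each match follow, 5′ to 3′ on the gene's strand, with the E-box in capitals.
Eif4e, chr3:138527018-138527077 (+), E-box from 228 bases before the start: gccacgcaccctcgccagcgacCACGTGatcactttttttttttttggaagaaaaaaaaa
Eif4e, chr3:138527177-138527236 (+), E-box from 64 bases before the same start: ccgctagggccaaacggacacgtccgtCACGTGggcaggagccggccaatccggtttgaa
Eif4g1, chr16:20672646-20672705 (+), E-box from 54 bases before the start: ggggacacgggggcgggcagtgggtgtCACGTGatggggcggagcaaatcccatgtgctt
Eif4a1, chr11:69672580-69672639 (-), E-box from 189 bases before the start: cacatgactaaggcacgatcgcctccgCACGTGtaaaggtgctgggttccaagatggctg
Eif4e has a second annotated start in the table, whose window held no E-box. The windows of Eif4ebp2, Eif4e2, Eif4g3, Eif4a2 and Eif4b did not hold these letters. A match is only a description of the sequence. Of the 3 genes that had one, Eif4g1 was called lower at P0 than at E12.5, and Eif4e and Eif4a1 were not called in any comparison.

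Across the whole span the family moved in different directions. Between E12.5 and P0, footprints of both 4E-BP genes, of Eif4g1 and of Eif4b fell, those of Eif4a2 and Eif4g3 rose, and those of Eif4e, Eif4e2, Eif4g2 and Eif4a1 were not called. Calls were made where limma-voom gave an adjusted p under 0.05 (Benjamini-Hochberg over all 13484 genes) and the change was a rise of at least 25% or a fall by the same factor. By this rule 6 of 10 members were called, 2 higher and 4 lower, while 62.1% of all genes were called, 30.1% higher and 32% lower, so the share of members was near that of all genes. The median fitted log2 change of the members was -0.13, against -0.01 over all genes. With library sizes left unscaled, which shifted the median of all genes by 0.51 on the log2 scale, 7 members were called, 5 higher and 2 lower. Over all genes 8952 of 13484 were called in that setting. An F test over all stages called 6 of 10 members, against 63.8% of all genes. These were the 6 called over the whole span. The 4 members it did not call had adjusted p-values of 0.295 for Eif4g2, 0.408 for Eif4a1, 0.511 for Eif4e2 and 0.932 for Eif4e (limma-voom).

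**Figure D1:**
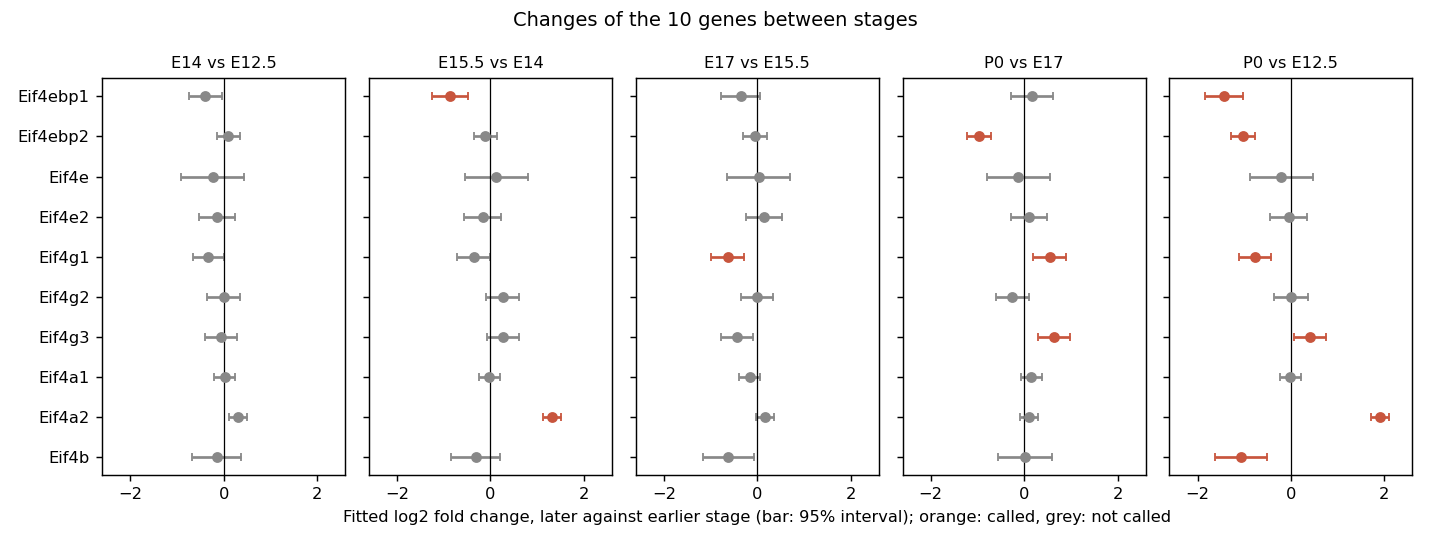
Fitted log2 fold changes (limma-voom) of the 10 genes, one panel per pair of stages, with the later stage against the earlier on the x axis and bars for the 95% interval. Orange points were called and grey points were not. Eif4a2 between E14 and E15.5 and over the whole span lies farthest to the right, and Eif4e has the widest bars.

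The steps between adjacent stages differed in what they held. From E12.5 to E14, 0 of 10 members were called, against 0.638% of all genes (0.497% higher and 0.141% lower), or 86 of 13484. The share over all genes depended on whether P0 was in the fit. With the 4 embryonic stages alone, chosen after seeing the data, 1067 of 13121 genes were called. Of the members, 2 had an unadjusted p under 0.05 in limma-voom, and edgeR and DESeq2 also called 0, with 1 member each under that mark. Over all genes edgeR and DESeq2 called 85 and 399 of 13484. From E14 to E15.5, Eif4a2 rose and Eif4ebp1 fell, 2 of 10 members, while 36.1% of all genes were called (16.5% higher and 19.6% lower). With library sizes left unscaled, which moved the median of all genes by 0.29 at this step, 4 members were called, 3 higher and 1 lower. Over all genes 6057 of 13484 were called in that setting. From E15.5 to E17 only Eif4g1 was called, lower, against 9.04% of all genes (5.61% higher and 3.43% lower). From E17 to P0, Eif4ebp2 fell while Eif4g1 and Eif4g3 rose, 3 of 10 members, against 20.5% of all genes (9.46% higher and 11.1% lower). Which members were called at this step, and whether more of them rose or fell, depended on which P0 library was kept.

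The 2 repressor genes lost footprints at different times. Eif4ebp1 had 6.88 and 7.14 CPM (E12.5), 5.39 and 5.32 (E14), 3.16 and 2.702 (E15.5), 2.06 and 2.59 (E17) and 3.26 and 2.39 (P0). Both E12.5 libraries were above both of E14, and these were above all 6 later libraries, which overlapped in part. The gene is thinly covered, with 30 to 191 counts per library. The 30 counts of P0 replicate 1 alone give an exact Poisson 95% interval of 2.20 to 4.66 CPM, which covers counting error only.

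The mean level of Eif4ebp1 was 7.01 ± 0.189 CPM at the first stage, then 5.36 ± 0.0459 (E14), 2.93 ± 0.326 (E15.5) and 2.33 ± 0.372 (E17), with 2.83 ± 0.62 at birth (SD, n = 2 libraries each). The fitted log2 change over the whole span was -1.44 (SE 0.18, adjusted p = 0.000176 in limma-voom), a 2.71-fold fall, and with library sizes unscaled it was -0.92 and still called. Leaving out P0 replicate 1 gave -1.55 and leaving out replicate 2 gave -1.05, called in both. That from E14 to E15.5 was -0.86 (SE 0.17, adjusted p = 0.00505 in limma-voom), or -0.56 and still called with library sizes unscaled. The steps on either side went the same way without being called, with -0.39 (95% interval -0.74 to -0.04) from E12.5 to E14 and -0.36 (-0.78 to 0.07) from E15.5 to E17. The change from E17 to P0 was 0.17 (-0.28 to 0.61). Leaving out any 1 library kept the fall from E14 to E15.5 at an adjusted p between 0.00129 and 0.0466 (limma-voom). At the same step the summed meningeal and choroid plexus markers fell as given above and the 8 neuron markers were all called higher, with 6406 to 6654 CPM in the E15.5 libraries against 3003 to 3058 CPM at E14. Of the 8 progenitor markers, 7 were called lower and 1 higher at this step. Their median log2 change was -0.988. Their summed level, in which the most abundant genes weigh most, overlapped, with 2158 to 2237 CPM at E14 and 2135 to 2293 CPM at E15.5. Red blood cell markers (3 of 5 tested) and microglia markers (4 of 5 tested) were called lower too. The part of these shifts in the fall of Eif4ebp1 was not tested.

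Eif4ebp2 fell at birth, and no embryonic step was called. Its libraries had 75.5 and 87.0 CPM (E12.5), 89.1 and 84.7 (E14), 78.0 and 82.8 (E15.5) and 82.6 and 72.8 (E17), against 40.6 and 39.4 (P0). The 8 embryonic libraries overlapped between stages, and both P0 libraries lay below all of them. The mean was 77.7 ± 6.90 CPM at E17 and 40.0 ± 0.844 at P0 (SD, n = 2 libraries each). The fitted log2 change from E17 to P0 was -0.96 (SE 0.11, adjusted p = 0.00203 in limma-voom), a 1.94-fold fall, and that over the whole span was -1.02 (SE 0.11), or -0.50 and still called with library sizes unscaled. The earlier steps gave 0.10 (95% interval -0.15 to 0.35), -0.11 (-0.36 to 0.13) and -0.05 (-0.30 to 0.20). The fall at birth was as large with either P0 library alone, with -0.98 when replicate 1 was left out and -0.91 when replicate 2 was. It was not called in a fit of these 2 stages alone, where the change was -0.95 with an adjusted p of 0.0883 (limma-voom).

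Red blood cell and progenitor markers fell beside Eif4ebp2. The summed level of 6 red blood cell genes was 3638 to 3641 CPM at E17 and 722 to 927 CPM at P0, and of the 5 tested 3 were called lower and 1 higher at this step. It had also been lower at E15.5 (3474 to 3727 CPM) than at E14 (5188 to 5707 CPM), a step at which Eif4ebp2 was not called. Progenitor markers summed to 2347 to 2472 CPM at E17 and 1410 to 1951 CPM at P0, and 4 of 8 were called lower. From E14 to E15.5, 7 had been called lower and 1 higher, and from E15.5 to E17, 5 lower. Eif4ebp2 was not called at either of those steps. Among 9205 genes that averaged 100 counts or more, those whose log2 CPM followed Eif4ebp2 most closely over the 10 libraries were Cdk2ap1 (Pearson r = 0.988), Gm12184 (0.987) and Hbb-bt (0.985), an adult beta-globin. The part of red blood cells and progenitors in the change of Eif4ebp2 was not tested. For Eif4ebp1 the closest were Pgk1-rs7 (0.992), Mrpl39 (0.992), a mitochondrial ribosomal protein gene, and Pgk1 (0.991), a glycolytic enzyme gene. These correlations are descriptions over libraries that share stages, and each list is the top of a ranking.

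**Figure D2:**
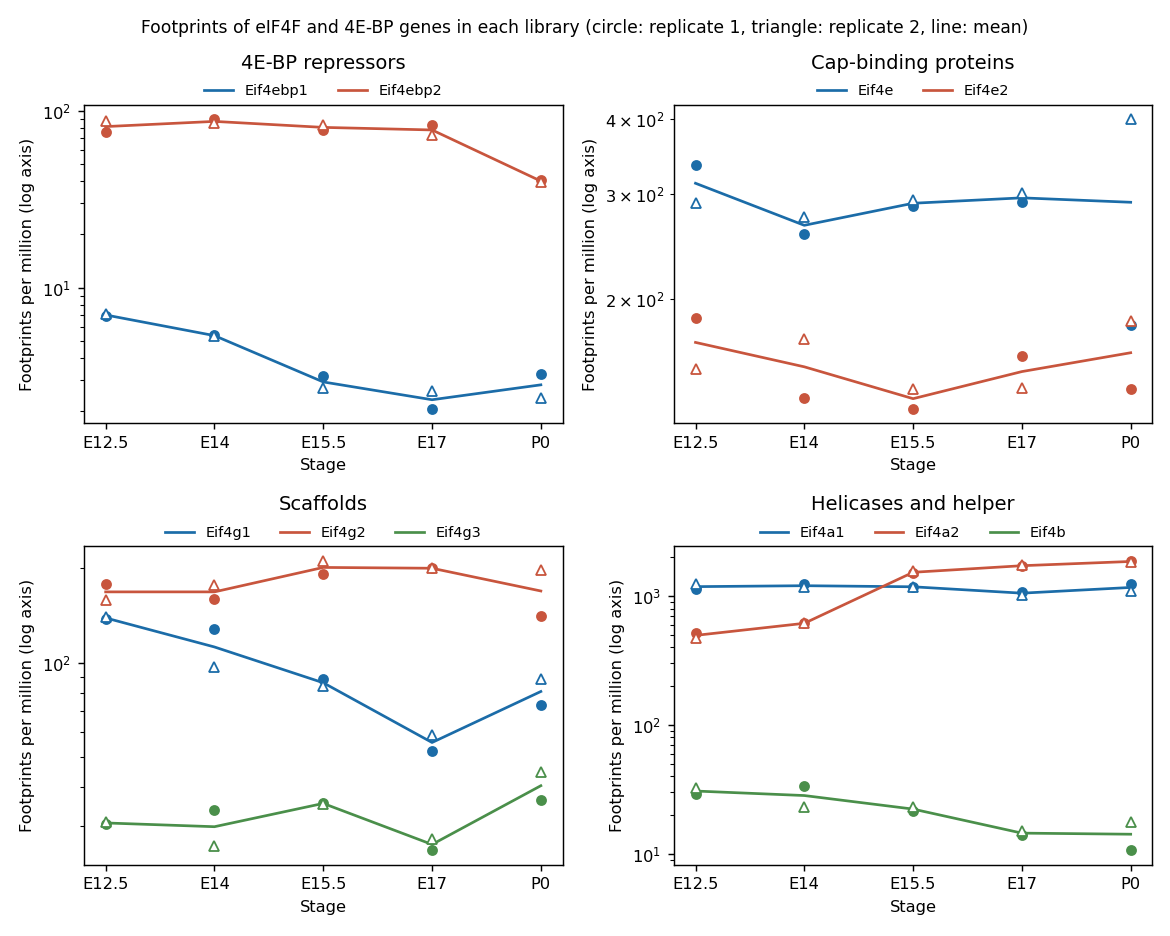
CPM (y axis, log scale) of the 10 genes in each library by stage (x axis), with a circle for replicate 1, a triangle for replicate 2 and a line through the stage means of 2 libraries. Levels are not per length, so the genes of a panel cannot be ranked against each other. Eif4ebp1 is lower from E15.5 on, Eif4ebp2 falls at P0, Eif4a2 climbs between E14 and E15.5, and the P0 libraries of Eif4e lie far apart.

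The cap-binding proteins showed no change that the replicates could resolve. Eif4e, the protein that grips the cap, had 335 and 290 CPM (E12.5), 257 and 274 (E14), 286 and 293 (E15.5) and 290 and 301 (E17). The 8 embryonic libraries thus lay within 257 to 335 CPM. At P0 the libraries had 181 and 400 CPM, one below and the other above all embryonic libraries, a 2.21-fold gap within the stage. The fitted log2 change from E12.5 to P0 was -0.20 (95% interval -0.88 to 0.47), and its sign rested on 1 library. It was 0.36 and called higher without P0 replicate 1 (adjusted p = 0.012) and -0.75 and called lower without P0 replicate 2 (adjusted p = 0.000497, both limma-voom). The direction at birth is therefore not settled by these libraries, and with library sizes unscaled it was 0.33. Genes that followed Eif4e most closely were Kpna3 (r = 0.974), an importin gene, Gm8332 (0.973) and Gm5039 (0.971).

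Eif4e2 encodes 4EHP, which binds the cap but not eIF4G and acts in repression with Gigyf proteins. It had 186 and 153 CPM (E12.5), 136 and 172 (E14), 131 and 141 (E15.5), 160 and 142 (E17) and 141 and 184 (P0). Neighbouring stages overlapped except E15.5, whose libraries lay below both of E17. The change from E12.5 to P0 was -0.05 (95% interval -0.44 to 0.34), and it was 0.48 and called higher with library sizes unscaled.

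The 3 scaffolds went separate ways. Eif4g1, the main scaffold that joins eIF4E to eIF4A, had 138 and 140 CPM (E12.5), 128 and 96.8 (E14), 88.6 and 83.9 (E15.5), 52.3 and 59.0 (E17) and 73.1 and 88.7 (P0). Its libraries stepped down without overlap from E12.5 to E17 and then rose. The fitted log2 change from E12.5 to P0 was -0.78 (SE 0.15, adjusted p = 0.00229 in limma-voom), a 1.71-fold fall. The lowest stage was E17, reached by a change of -0.64 (SE 0.15, adjusted p = 0.0394) from E15.5 and left by one of 0.55 (SE 0.15, adjusted p = 0.0392, both limma-voom). These steps were close to the threshold. The first lost its call without any 1 of the 6 libraries of E12.5, E15.5 or E17 (adjusted p = 0.0683 to 0.246), and the second also without P0 replicate 2 (adjusted p = 0.0633 to 0.226, both limma-voom). The change from E12.5 to P0 held without each library, at -0.89 to -0.64, and was -0.25 and not called with library sizes unscaled.

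Eif4g3, a paralogue of Eif4g1, had 30.6 and 31.0 CPM (E12.5), 33.9 and 26.0 (E14), 35.7 and 35.4 (E15.5), 25.2 and 27.4 (E17) and 36.3 and 44.6 (P0). The P0 libraries were the highest and those of E17 among the lowest. The change from E17 to P0 was 0.63 (SE 0.15, adjusted p = 0.0212 in limma-voom), and that from E12.5 to P0 was 0.40 (SE 0.15, adjusted p = 0.0428 in limma-voom), a 1.32-fold rise, which was 0.93 on the log2 scale with library sizes unscaled. Without E17 replicate 1 or E17 replicate 2 the former was not called (adjusted p = 0.147 and 0.0716). The latter was not called without any 1 of the libraries of E12.5, E15.5 or E17 or without P0 replicate 2 (adjusted p = 0.0625 to 0.178, all limma-voom).

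Eif4g2 encodes DAP5, a scaffold that lacks the eIF4E-binding part. It had 178 and 158 CPM (E12.5), 160 and 177 (E14), 191 and 211 (E15.5), 200 and 200 (E17) and 141 and 197 (P0). The E15.5 and E17 libraries lay above the other libraries except for the upper P0 value, which fell within the range of E15.5. No step was called, and the change from E12.5 to P0 was 0.00 (95% interval -0.35 to 0.36). It was 0.54 and called higher with library sizes unscaled.

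Of the helicases, Eif4a2 had the largest change of the 10 genes in this fit. It had 513 and 477 CPM (E12.5), 615 and 613 (E14), 1496 and 1559 (E15.5), 1705 and 1730 (E17) and 1874 and 1833 (P0). Libraries of successive stages did not overlap at any step. The change from E14 to E15.5 was 1.31 (SE 0.08, adjusted p = 6.04e-05 in limma-voom), a 2.49-fold rise, and that over the whole span was 1.91 (SE 0.08, adjusted p = 9.23e-07 in limma-voom), a 3.75-fold rise. The first step, 0.31 (95% interval 0.12 to 0.50), was not called, nor were the last steps of 0.17 (-0.03 to 0.37) and 0.11 (-0.09 to 0.31). Neuron markers rose over the same interval. Their summed level was 2216 to 2266 CPM at E12.5 and 7908 to 8893 CPM at P0, and all 8 were called higher from E14 to E15.5, against 2 at each of the later steps. Their part in the rise of Eif4a2 was not tested.

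Eif4a1, the paralogue of Eif4a2, had 1130 and 1235 CPM (E12.5), 1239 and 1165 (E14), 1183 and 1175 (E15.5), 1077 and 1026 (E17) and 1231 and 1099 (P0). All 10 libraries lay within 1026 to 1239 CPM, and the E17 libraries were the lowest. The change from E14 to E15.5 was -0.03 (95% interval -0.25 to 0.20) and that over the whole span was -0.02 (-0.24 to 0.21), which was 0.51 and called higher with library sizes unscaled. Eif4b, which stimulates the helicase, had 28.9 and 32.5 CPM (E12.5), 33.8 and 22.9 (E14), 21.5 and 23.0 (E15.5), 14.04 and 14.9 (E17) and 10.7 and 17.8 (P0). The libraries of E17 and P0 lay below all earlier ones. The change over the whole span was -1.07 (SE 0.25, adjusted p = 0.00522 in limma-voom), a 2.10-fold fall, of which the largest step was -0.62 (95% interval -1.16 to -0.07) from E15.5 to E17, not called. The change over the span stayed called when P0 replicate 1 (-0.79) or P0 replicate 2 (-1.49) was left out, and with library sizes unscaled it was -0.54 and not called.

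The ratio of repressor to cap-binding footprints was compared across stages within each library, where library size cancels. Footprints were not divided by coding length, so a ratio is read against its own mean at E12.5 and not as a ratio of proteins. Ratios were tested by an exact permutation test of the F statistic over every way to split 10 libraries into 5 pairs, adjusted by Benjamini-Hochberg over 9 ratios. The smallest p it can give is 0.00106. Single pairs of stages were not tested, since 2 libraries against 2 cannot give an exact p below 0.333.

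Eif4ebp1 footprints were lower relative to those of Eif4e at E15.5 and E17 than before. Relative to the geometric mean at E12.5, the ratio was 0.913 and 1.10 (E12.5), 0.933 and 0.863 (E14), 0.493 and 0.413 (E15.5), 0.318 and 0.385 (E17) and 0.812 and 0.266 (P0). The 4 libraries of E15.5 and E17 lay below the 4 earlier ones, and the P0 libraries lay at opposite ends of the later range. Over all 5 stages the test gave p = 0.152 (exact permutation, adjusted p = 0.171). Over the 4 embryonic stages alone, a choice made after seeing how the P0 libraries differed, it gave p = 0.019 (exact permutation, adjusted p = 0.0343, smallest possible p = 0.00952), with a ratio at E17 that was 2.86-fold lower than at E12.5. Leaving out P0 replicate 1 or P0 replicate 2 gave adjusted p = 0.0222 or 0.0167 (exact permutation), with a log2 change from E12.5 to P0 of -1.91 or -0.30.

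For Eif4ebp2 relative to Eif4e, 1 library at birth stood below the rest. The ratio was 0.866 and 1.16 (E12.5), 1.33 and 1.19 (E14), 1.05 and 1.09 (E15.5), 1.09 and 0.933 (E17) and 0.862 and 0.379 (P0). Both E14 libraries lay above the other embryonic ones, which overlapped between stages, and P0 replicate 2 was the lowest library. The log2 change from E12.5 to P0 was -0.81 (exact permutation p = 0.0741, adjusted p = 0.111). It was -1.40 without P0 replicate 1 (adjusted p = 0.0452, exact permutation) and -0.21 without P0 replicate 2 (adjusted p = 0.305, exact permutation), so it rested on 1 library. Over the embryonic stages alone the change was 0.02 (exact permutation p = 0.362). The summed repressor footprints, most of which were those of Eif4ebp2, gave -0.83 from E12.5 to P0 (exact permutation p = 0.0698, adjusted p = 0.111).

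Between the repressors the balance moved toward Eif4ebp2 before birth and back at P0. The ratio of Eif4ebp1 to Eif4ebp2 was 1.05 and 0.949 (E12.5), 0.700 and 0.727 (E14), 0.470 and 0.379 (E15.5), 0.290 and 0.413 (E17) and 0.941 and 0.702 (P0). It was lowest at E15.5 and E17, which overlapped, and the P0 libraries lay within the range of E14 or above it. The stages differed (exact permutation p = 0.0127, adjusted p = 0.0286). The change from E12.5 to E17 was -1.53 on the log2 scale, while that from E12.5 to P0 was -0.30. The adjusted p was 0.0524 without E14 replicate 1, 0.0643 without E12.5 replicate 1 and 0.0548 without E12.5 replicate 2 (exact permutation).

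**Figure D3:**
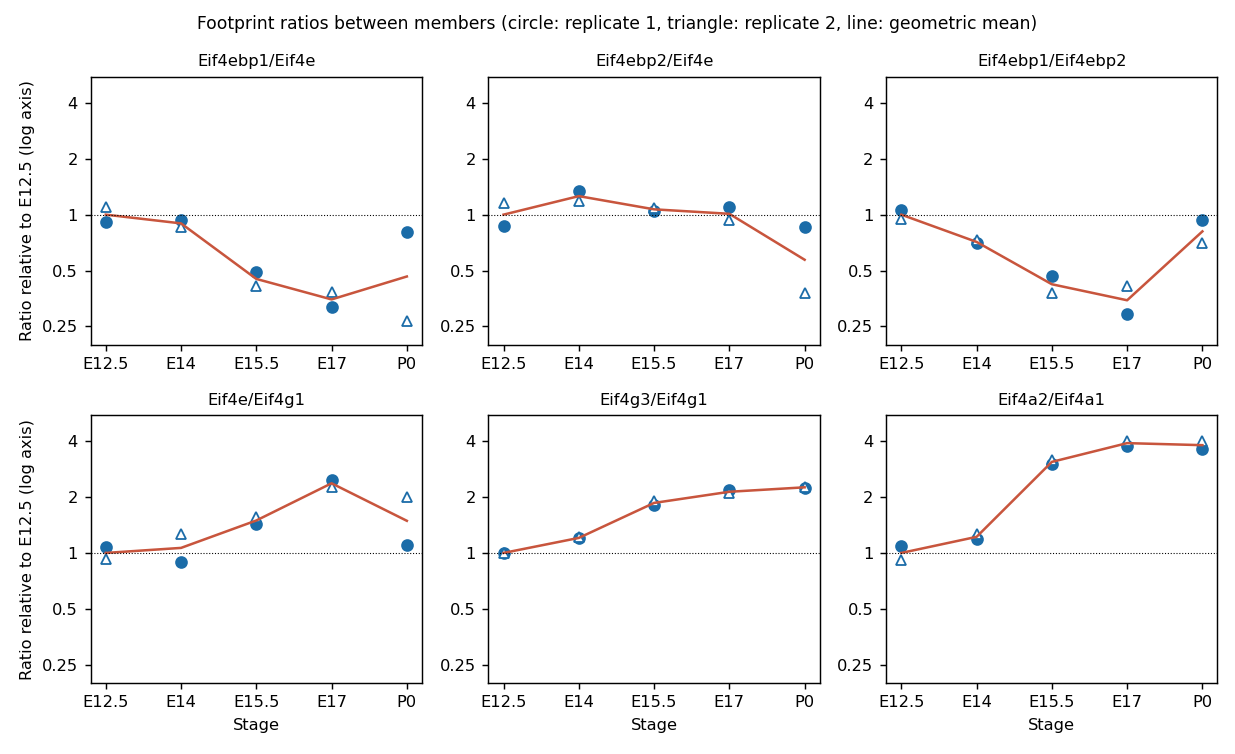
Footprint ratios between pairs of members in each library, relative to the geometric mean at E12.5 (y axis, log scale) by stage (x axis), with a circle for replicate 1, a triangle for replicate 2 and a line through the geometric means. Eif4ebp1/Eif4e is at 0.350 at E17, Eif4g3/Eif4g1 and Eif4a2/Eif4a1 rise to 2.26 and 3.80 at P0, and the P0 points of the ratios with Eif4e lie far apart.

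Ratios between paralogues differed across stages. Eif4g3 relative to Eif4g1 was 0.999 and 1.00 (E12.5), 1.20 and 1.21 (E14), 1.82 and 1.90 (E15.5), 2.17 and 2.10 (E17) and 2.24 and 2.27 (P0). Each stage lay above the one before without overlap. The ratio was 2.26-fold higher at P0 than at E12.5 (exact permutation p = 0.00106, the smallest possible, adjusted p = 0.00952). The P0 libraries, which differed so much in Eif4e, gave 49.7 and 50.3 as the percentage of Eif4g3 to Eif4g1 footprints.

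Eif4a2 relative to Eif4a1 was 1.08 and 0.922 (E12.5), 1.19 and 1.26 (E14), 3.02 and 3.17 (E15.5), 3.78 and 4.03 (E17) and 3.63 and 3.98 (P0). Stages up to E17 did not overlap, and those of E17 and P0 did. The ratio was 3.80-fold higher at P0 than at E12.5 (exact permutation p = 0.00212, adjusted p = 0.00952). Eif4g2 relative to Eif4g1 rose 2.98-fold from E12.5 to E17 and was 1.71-fold higher at P0 than at E12.5 (exact permutation p = 0.00529, adjusted p = 0.0159). It missed the threshold without E12.5 replicate 1 or E12.5 replicate 2 (adjusted p = 0.0643 and 0.0548, exact permutation). Eif4e relative to Eif4g1 was 2.37-fold higher at E17 and 1.49-fold higher at P0 (exact permutation p = 0.0889, adjusted p = 0.114). Over the 4 embryonic stages alone this ratio missed the threshold (exact permutation p = 0.0381, adjusted p = 0.0571). Without P0 replicate 1 or P0 replicate 2 its adjusted p was 0.0238 or 0.0444 (exact permutation). Eif4e2 relative to Eif4e was 1.11-fold higher at P0 (exact permutation p = 0.734).

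The members were set beside 34 genes of partners and regulators of the complex. Of these 33 were tested, since Eif4e1b had 0 to 5 counts per library. From E12.5 to P0, 7 rose and 13 fell, 20 of 33 or 60.6% against 62.1% of all genes. With library sizes unscaled 18 were called, 13 higher and 5 lower, against 8952 of 13484 genes. The balance of directions thus depended on the scaling. The median log2 change was -0.33 against -0.01 over all genes. From E14 to E15.5, 4 rose and 3 fell, 21.2% against 36.1% of all genes. With library sizes unscaled 11 rose and 2 fell, against 6057 of 13484 genes called. From E15.5 to E17, 1 fell, 3.03% against 9.04% of all genes. From E17 to P0, 3 fell, 9.09% against 20.5% of all genes, and 5 or 10 were called without P0 replicate 1 or P0 replicate 2. From E12.5 to E14, 0 were called, against 0.638% of all genes, with 5 at an unadjusted p under 0.05 in limma-voom, 4 in edgeR and 2 in DESeq2, which both also called 0.

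Of the other cap-binding and 4E-BP genes, 0 were higher and 3 lower of 5 tested from E12.5 to P0, or 60.0% against 62.1% of all genes, so the share was near the background. With library sizes unscaled 1 was higher and 1 lower. Ncbp1 and Ncbp2, the subunits of the nuclear cap-binding complex, changed by -0.93 (SE 0.11) and -0.70 (SE 0.12), and with library sizes unscaled Ncbp2 was at -0.17 and not called. Eif4ebp3, the third 4E-BP, had 2.15 and 2.73 CPM (E12.5), 2.52 and 2.22 (E14), 1.02 and 0.929 (E15.5), 0.540 and 0.676 (E17) and 0.217 and 1.15 (P0). Both E15.5 libraries lay below all earlier ones, as for Eif4ebp1, and the change from E14 to E15.5 was -1.24 (SE 0.31, adjusted p = 0.0147 in limma-voom). Its counts were 2 to 73 per library, so its level at P0 is only loosely known. The change from E12.5 to P0, -1.44 (SE 0.40), became -1.10 when P0 replicate 1 was left out and -3.16 when replicate 2 was, called each time, and was -0.92 and not called with library sizes unscaled. That from E17 to P0, 0.58 and not called, was 0.92 and called higher without P0 replicate 1 and -1.15 and not called without P0 replicate 2.

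Among the 6 eIF4E-binding partners, 1 was higher and 2 were lower from E12.5 to P0, or 50.0% against 62.1% of all genes, and with library sizes unscaled 2 were higher and 1 lower. Cyfip2, a subunit of the WAVE actin regulator from a family that can bind eIF4E together with FMRP, rose 2.37-fold (log2 change 1.24, SE 0.11). It had 26.7 and 30.8 CPM (E12.5), 36.5 and 34.2 (E14), 58.0 and 60.8 (E15.5), 56.3 and 61.3 (E17) and 69.5 and 66.9 (P0). The step from E14 to E15.5, 0.75 (SE 0.11, adjusted p = 0.00109 in limma-voom), was that at which Eif4a2 also rose. Angel1, a relative of the CCR4 deadenylase, changed by -1.41 (SE 0.28) on a mean of 20.8 counts per library, and without P0 replicate 2 it was at -0.81 and not called.

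Of the 11 genes that help or restrain eIF4A and eIF4G, 1 was higher and 7 were lower from E12.5 to P0, or 72.7% against 62.1% of all genes. With library sizes unscaled 1 was higher and 3 were lower. Pabpc1, the poly(A)-binding protein that touches eIF4G, changed by -1.60 (SE 0.21), from 50.9 and 52.2 CPM at E12.5 to 11.96 and 21.3 at P0. From E17 to P0 it was at -0.30 and not called, but at -0.77 and called lower without P0 replicate 2. Pdcd4, an inhibitor of eIF4A, changed by -1.31 (SE 0.18), from 177 and 148 CPM to 51.6 and 79.1, and from E17 to P0 it was at -0.31 and not called, but at -0.61 and called lower without P0 replicate 2. Eif4a3, the helicase of the exon junction complex, and Eif4h, a cofactor of eIF4A, changed less, by -0.43 (SE 0.10) and -0.33 (SE 0.08). With library sizes unscaled these were 0.10 and 0.20 and not called, and Eif4h was at -0.29 and short of the fold threshold without P0 replicate 1. Ctif, which links the nuclear cap-binding complex to the ribosome, rose 2.11-fold (1.08, SE 0.14) and was the 1 gene of this group that was higher. Paip2b, an inhibitor of poly(A)-binding protein, fell from E17 to P0 by 0.89 on the log2 scale (SE 0.18), with an adjusted p of 0.0109 in limma-voom, and leaving out P0 replicate 1 or replicate 2 gave -0.62 or -1.21. From E12.5 to P0 it was called lower without P0 replicate 2 (-0.59) but not with both (-0.28).

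The list of signalling kinases and their regulators had 5 higher and 1 lower of 11 from E12.5 to P0, or 54.5% against 62.1% of all genes. Besides mTORC1 and its control it held Rps6kb and Mknk kinases, so not all of it lies upstream of the 4E-BPs. With library sizes unscaled 9 were higher and 0 lower. Without P0 replicate 2, 4 were higher and 0 lower. Genes of mTORC1 and genes of the complex that restrains it were both among those called higher. Mtor, the kinase, rose by 0.60 (SE 0.16, adjusted p = 0.0105), and Rptor, the subunit that recruits its substrates, by 0.47 (SE 0.17, adjusted p = 0.0363, both limma-voom), though Rptor was at 0.31 and not called without P0 replicate 1 and at 0.73 without replicate 2. Tsc2 rose by 0.55 (SE 0.12). The F test over all stages did not call Mtor or Rptor (adjusted p = 0.0707 and 0.113) and called Tsc2 (0.00837, all limma-voom). The 1 lower gene was Rps6kb2, at -0.61 (SE 0.17), and at -0.09 and not called with library sizes unscaled. For Rps6kb2, leaving out P0 replicate 1 gave -0.69, still called, and leaving out replicate 2 gave -0.41, not called. Tsc1, the partner of Tsc2 in the restraining complex, rose by 0.76 (SE 0.12, adjusted p = 0.000639 in limma-voom). It had 12.1 and 13.9 CPM (E12.5), 17.1 and 16.1 (E14), 23.0 and 23.4 (E15.5), 25.6 and 23.2 (E17) and 23.3 and 21.2 (P0). The libraries of E15.5 and later lay above all earlier ones and overlapped in part. The measurements are of footprints alone and say nothing of phosphorylation.

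**Figure D4:**
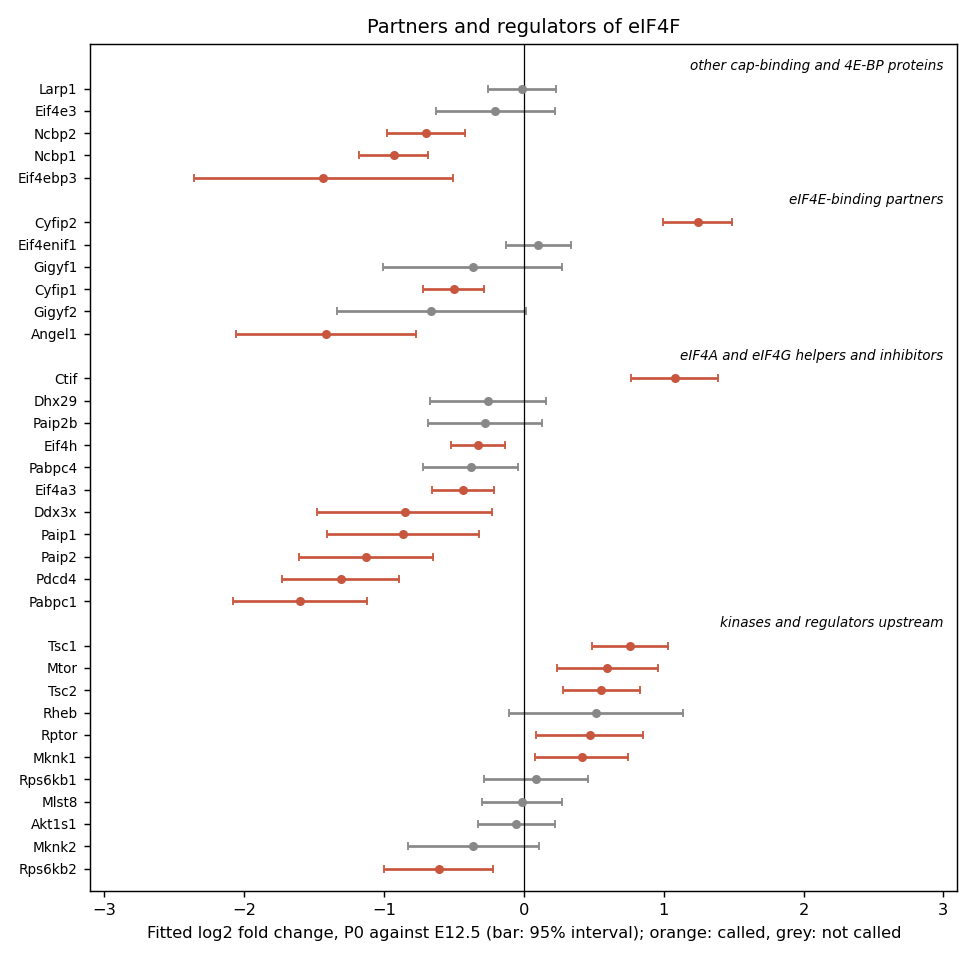
Fitted log2 fold changes (limma-voom, x axis) of the 33 tested partner and regulator genes at P0 against E12.5, grouped by role, with bars for the 95% interval. Orange points were called and grey points were not. Of the helpers and inhibitors 7 lie to the left as called, and of the kinases and regulators upstream 5 lie to the right as called.

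How reads shared between genes with similar sequences were assigned in the table is not stated, which bears on the paralogues Eif4a1 and Eif4a2 and on any processed copies of these genes. No other gene had counts within 5% of a member's in all libraries.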

How the data were processed

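The values deposited by the authors are raw footprint counts, in whole numbers, for 10 Ribo-seq libraries. According to the study's methods, the authors digested lysates with RNase T1 and RNase A, took 80S monosomes from gradients, trimmed adapters with cutadapt, removed duplicate read sequences and random end bases, discarded tRNA, rRNA and snoRNA reads with Bowtie 2, and aligned the rest to coding transcripts and, separately, to the mouse genome of GENCODE release M12 with STAR (2.7.0 per the submitters' processing notes), keeping reads with several matches. DeepShape-prime and tximport are named, but which alignment or tool gave these counts is not stated. Of 22373 identifiers, 22274 matched a symbol.

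Analysis used R 4.3.3. The low count filter kept any gene whose 2 libraries of some stage together held 32 or more footprints. TMM factors (edgeR 4.0.16) scaled library sizes, also in CPM, counts relative to size. The test was limma-voom (limma 3.58.1) with 1 coefficient per stage over all 10 libraries, two-sided. Ratios had 0.5 counts added and were tested in Python 3.11.15. DESeq2 1.42.0 was an alternative. The code was tested on simulated counts. p-values measure a spread between pools that was estimated jointly over all stages and may be technical in part. Replicates differed more at P0 (SD 0.532) than in the embryonic stages (0.125 to 0.216). The p-values of a step thus do not measure the spread of its own stages. Those at P0 may be too small and those between embryonic stages too large. The fit did not pair libraries by replicate number, since deviations of same-numbered libraries differed in sign between pairs of stages. The numbers may not match between stages, so this does not show that the libraries were independent.

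The members, ratios and lists were chosen with earlier results of these data known. All 10 members are named, with up to 12 partner or regulator genes by smallest F test p among those called. Mtor, Rptor, Tsc2 and Rps6kb2 are given with values outside this rule. For Eif4ebp1, Eif4ebp2 and Eif4e the 3 genes most correlated with each are named. Coding lengths were not used here, so no level is per length.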

Additional observations from a re-analysis of the deposited data

How the results depend on the processing

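Calls near the threshold depended on how the spread was estimated, and the cause was not tested. The members called from E15.5 to E17 were 1 in the fit reported, 0 with edgeR and 0 without a low count filter. They were 3 each with sample quality weights, only the 4 embryonic stages (chosen after seeing the data) and only the 2 stages compared. All genes called at this step were 1219 of 13484 in the fit reported and 982 with edgeR. They were 773 of 19369 without the filter and 3717 of 13484 with the weights. With the embryonic stages they were 2844 of 13121, and with 2 stages 3267 of 12488. From E14 to E15.5 the members called numbered 4 with total counts only, against 6057 of 13484 genes. From E17 to P0 they numbered 1 with quality weights, against 698 of 13484 genes. With only the 2 stages they numbered 0 (3 members at an unadjusted p under 0.05), against 0 of 12995 genes. Leaving out 1 library gave 0 to 0 members from E12.5 to E14, 2 to 3, 0 to 3 and 1 to 4 at the later steps, 5 to 7 over the span and 5 to 8 in the F test. At E15.5 to E17 it gave 3 without either P0 library and 0 without any 1 library of E12.5, E15.5 or E17. At E17 to P0 it gave 1 without either E17 library.

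Partner and regulator genes called from E12.5 to E14 numbered 2 with the embryonic stages alone, against 1067 of 13121 genes. From E14 to E15.5, 7 in the fit reported, they numbered 4 with DESeq2, 13 with total counts and 12 with quality weights. They numbered 12 with the embryonic stages and 11 with 2 stages. All genes called were 3973, 6057 and 6502 of 13484 with DESeq2, total counts and weights. With the embryonic stages they were 6321 of 13121, and with 2 stages 6338 of 12729. From E15.5 to E17, 1 in the fit reported, the partner and regulator genes numbered 8, 5 and 7 with the weights, embryonic stages and 2 stages. The counts over all genes were those given above for this step. With only 2 stages the partner and regulator genes called numbered 0 from E17 to P0 (3 at an unadjusted p under 0.05), against 0 of 12995 genes. Over the span they numbered 9, against 5999 of 13289 genes. Leaving out 1 library gave 0 to 3, 2 to 12, 0 to 5, 0 to 10 and 15 to 21. The lowest from E14 to E15.5, 2 to 4, came without 1 library of either stage, and from E15.5 to E17, 0, likewise. The highest counts at the first 3 steps came without a P0 library (3 or 2, 12 and 5), and from E17 to P0 they were 5 without P0 replicate 1, 10 without P0 replicate 2 and 0 without either E17 library.

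Log2 changes near 0 turned sign. From E12.5 to P0, total counts gave 0.328 for Eif4e, 0.479 for Eif4e2 and 0.511 for Eif4a1. Eif4a1 was 0.00889 with DESeq2, 0.0111 with its size factors, 0.00961 with quality weights and 0.00316 with 2 stages, and from E14 to E15.5 it was 0.268 with total counts. Eif4g2 was -0.0107 without the filter and -0.0776 with quality weights. Leaving out 1 library gave -0.749 to 0.364 for Eif4e, -0.215 to 0.134 for Eif4e2, -0.215 to 0.241 for Eif4g2, -0.0982 to 0.0936 for Eif4a1 over the span and -0.0769 to 0.0131 for Eif4a1 from E14 to E15.5.

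Ratios over the embryonic stages alone (E17 against E12.5) were -1.52 for Eif4ebp1/Eif4e, now past the threshold, 0.0151 for Eif4ebp2/Eif4e and -0.0804 for Eif4e2/Eif4e. Leaving out 1 library, the log2 change from E12.5 to P0 was -1.91 to -0.301 for Eif4ebp1/Eif4e, -1.4 to -0.214 for Eif4ebp2/Eif4e, -1.43 to -0.222 for both repressors over Eif4e, -0.511 to -0.0876 for Eif4ebp1/Eif4ebp2, -0.233 to 0.531 for Eif4e2/Eif4e, 0.143 to 1.01 for Eif4e/Eif4g1, 1.17 to 1.18 for Eif4g3/Eif4g1, 0.676 to 0.881 for Eif4g2/Eif4g1 and 1.81 to 2.04 for Eif4a2/Eif4a1. Adding 1 count or using the Kruskal-Wallis statistic changed no call of a ratio.

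With the replicate number as a block, 0 members were called from E15.5 to E17. Eif4g1 lost its calls at E15.5 to E17 (adjusted p = 0.065) and E17 to P0 (0.0643), and Eif4g3 that over the span (0.0652, all limma-voom). Deviations of same-numbered libraries correlated between -0.641 and 0.429 over 10 pairs of stages, so the numbers did not pair the libraries in 1 direction. Those of E12.5 correlated negatively with every later stage (-0.641 to -0.109), and pairs of later stages gave -0.0442 to 0.429. Whether libraries of different stages shared a source of variation was not tested. Levels per coding length with total counts were not run. Depth limits Eif4ebp1 among the members, and Angel1, Gigyf1 and Eif4ebp3 more so, and with 2 libraries a stage outliers could not be tested.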

Other observations

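Among the 10 genes, log2 CPM over the 10 libraries was most alike for Eif4ebp1 and Eif4g1 (Pearson r = 0.888) and for Eif4g1 and Eif4b (0.869), and most opposed for Eif4ebp1 and Eif4a2 (-0.959). Eif4ebp1 and Eif4e, the repressor and its target, gave -0.077. These are descriptions over 10 libraries that share 5 stages, out of 45 pairs.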
